A study of Mus musculus with 16 samples.

Results

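The genes examined here are 10 that act in the attachment of chromosome ends to the nuclear envelope and their movement along it during meiotic prophase, followed in the testis of mice with and without the RNA helicase gene Ythdc2. They were Terb1, Terb2, Majin, Sun1, Sun2, Ccdc155 (named Kash5 in newer annotation), Spdya, Cdk2, Terf1 and Terf2. The rows were found by Ensembl gene ID, and all 10 were present among the 55414 gene rows of each deposited table. RNA of whole testes was sequenced in 16 libraries from mice at postnatal day 14 (P14) or 16 (P16), labelled control, Cre control or Ythdc2 cKO (conditional knockout). Per the labels, mice of all 3 kinds received tamoxifen at 10 mg/ml on P12 and P13, so the controls had the drug as well. The column names call the control libraries WT (wild type) and the Cre control libraries Ctrl. The Cre driver, the alleles, the strain, any further background of the controls and the number of animals in a library were not given in the sources used here. Controls numbered 2 libraries at each stage, Cre controls 2 at P14 and 4 at P16, and cKO 3 at each stage.

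In early meiotic prophase, telomeres leave their usual place inside the nucleus and fasten to the inner nuclear membrane. TERF1 and TERF2 are the shelterin proteins that bind telomeric repeats directly, and the meiosis-specific proteins TERB1, TERB2 and MAJIN form a complex that takes telomeres over at the membrane. SUN1 and SUN2 span the inner membrane and join KASH5 in the outer membrane, which binds cytoplasmic dynein, so that forces from microtubules move the chromosome ends while homologues find each other. CDK2 sits at meiotic telomeres with its activator Speedy A, the product of Spdya, and both are needed for the attachment.

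Per the labels, 2 rRNA depletion kits were used. The main fits of cKO against control, the interaction and the stage changes each stayed within a single kit. The fits of cKO against Cre control mixed both. Ribo-Zero, called the first kit here, depleted the controls and, at both stages, cKO libraries 1 and 2. NEBNext, called the second kit, depleted all Cre controls and, at both stages, cKO library 3. Reads on genes ranged from 22220565 to 27531529 with the first kit and from 14494867 to 23200252 with the second. Ythdc2 itself stood at 19.8% of the control mean in cKO at P16 and at 32.9% at P14, and every cKO library was below every control library in all 4 tables. The testis label held in the markers: Sertoli cell, spermatogonial and spermatocyte genes were present in every library, while the 7 spermatid markers summed to at most 0.544 CPM (reads scaled to a common library total), with Prm2, Tnp2 and Catsper1 at 0 in all libraries. The labels do not say that replicates were separate animals, so p-values measure the spread between these libraries only.

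The start regions of 4 members are shown first, since the RNA results below turn on these genes: Terb1 and Sun1 fell in cKO at P16, Spdya rose, and Ccdc155 differed from the Cre controls. Each sequence is the 300 bases from 250 before to 50 after the annotated start in RefSeq (build GRCm38.p6), written 5′ to 3′ along the gene's strand, and RefSeq's table held such a region for 7 of the 10 members. Capitals mark matches on either strand to a MYB core (CNGTTG), a STRA8 core (CNCCTCAG), a CRE (TGACGTCA), a CCAAT box (CCAAT), an E2F core (GCGGGAA) or a GC box (GGGCGG).
Terb1, chr8:104509838-104510137, minus strand: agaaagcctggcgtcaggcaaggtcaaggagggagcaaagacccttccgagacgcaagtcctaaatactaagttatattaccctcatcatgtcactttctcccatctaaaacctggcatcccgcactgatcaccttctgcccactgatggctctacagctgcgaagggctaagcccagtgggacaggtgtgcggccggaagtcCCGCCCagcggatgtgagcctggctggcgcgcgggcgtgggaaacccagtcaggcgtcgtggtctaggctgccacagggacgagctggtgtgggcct
Sun1, chr5:139200387-139200686, plus strand: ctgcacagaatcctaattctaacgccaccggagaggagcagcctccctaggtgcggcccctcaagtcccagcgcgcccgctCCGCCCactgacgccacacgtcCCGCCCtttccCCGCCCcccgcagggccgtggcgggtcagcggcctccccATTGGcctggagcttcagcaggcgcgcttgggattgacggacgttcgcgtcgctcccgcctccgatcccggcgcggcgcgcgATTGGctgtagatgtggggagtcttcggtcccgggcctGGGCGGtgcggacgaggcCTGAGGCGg
Spdya, chr17:71551811-71552110, plus strand: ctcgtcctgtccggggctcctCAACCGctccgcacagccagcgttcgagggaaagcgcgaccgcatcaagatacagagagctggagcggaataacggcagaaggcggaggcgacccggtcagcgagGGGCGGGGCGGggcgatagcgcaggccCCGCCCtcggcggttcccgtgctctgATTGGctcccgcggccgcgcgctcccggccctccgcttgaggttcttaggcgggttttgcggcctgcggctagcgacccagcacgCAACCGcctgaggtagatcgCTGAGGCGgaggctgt
Ccdc155, chr7:45204843-45205142, minus strand: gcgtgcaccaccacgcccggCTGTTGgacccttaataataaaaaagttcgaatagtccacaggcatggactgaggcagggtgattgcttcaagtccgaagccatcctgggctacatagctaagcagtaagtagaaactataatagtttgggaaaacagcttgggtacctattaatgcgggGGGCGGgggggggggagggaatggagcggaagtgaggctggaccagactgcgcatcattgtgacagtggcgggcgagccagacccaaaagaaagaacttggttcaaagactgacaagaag

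All 4 windows held a GC box, and they differed in the other motifs. Those of Sun1 and Spdya were rich in CpG, with 36 and 38 CpG dinucleotides, against a median of 7 over the 32851 promoters of the same length in RefSeq. Those of Terb1 and Ccdc155 had 16 and 11. RefSeq's table also held a second start region of Sun1, not printed, with 4 CpG, 1 CCAAT box and none of the other motifs, and which start was used was not measured. A STRA8 core, found in 7.94% of all promoters, was present once in Sun1, Spdya and Cdk2. The MYB core, in 35.0% of all promoters, occurred at 2 places in Spdya and 1 in Ccdc155. GC boxes, in 35.7% of all promoters, numbered 4 in Sun1, 3 in Spdya, of which neighbouring copies run into each other, and 1 each in Terb1 and Ccdc155. CCAAT boxes, in 37.4% of all promoters, were found 2 times in the printed window of Sun1 and 1 time in Spdya. The E2F core, in 4.6% of promoters, matched only Cdk2 among the 7 members with a window, and the CRE, in 1.79%, matched none of them. A match is a run of letters and no measurement of binding, and Sun1, which fell, and Spdya, which rose, shared the STRA8 core, the CCAAT box and the GC box in the windows printed.

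At P16 the cKO testis had less RNA of the membrane complex genes Terb1 and Majin and of Sun1 than the control testis, slightly less Terf1 and Cdk2, and somewhat more Spdya and Sun2. Terb2, Ccdc155 and Terf2 did not pass the test. Of the 10 members, all of which passed the filter on low values, 7 were called (limma adjusted p under 0.05), 5 lower and 2 higher, while 38.6% of all 17986 genes tested were called, 19.9% lower and 18.6% higher. The median log2 change was -0.15 over the members and -0.00050 over all genes. The share of members called was above that of all genes, but with 10 genes this is a description and was not tested. Values below are the deposited read counts divided by a size factor of the library, from 4 first-kit libraries, 2 of each genotype, and changes are on the log2(value + 1) scale with their standard error (SE).

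Terb1, which encodes the meiotic protein that binds TERF1 and anchors the complex to telomeres, had values of 1278 and 1184 in the controls and 712.3 and 758.1 in cKO. Both cKO libraries lay far below both controls, at 59.7% of the control mean. The change was -0.74 (SE 0.065, limma adjusted p 4.09e-06), the largest fall of the 10. Majin, whose product carries the complex into the inner nuclear membrane, had 483.2 and 500.0 in the controls and 328.0 and 341.8 in cKO. Again the groups were well apart, with 68.1% of the control mean in cKO and a change of -0.55 (SE 0.083, limma adjusted p 2.29e-04). Terb2, which links TERB1 to MAJIN, had 417.7 and 425.4 in the controls and 425.0 and 482.6 in cKO. Here the groups overlapped, with the lower cKO library level with the controls and the other above them, and the change of 0.10 (SE 0.087) was not called (limma adjusted p 0.379). The RNAs of the 3 partners of 1 complex thus did not move together, since 2 fell and the third was not lower in either cKO library than in the lower control.

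The ratio of reads within a library shows this without any scaling between libraries, though it takes no account of gene length and is compared across libraries only. Terb1 had 3.06 and 2.78 reads for each Terb2 read in the P16 controls and 1.68 and 1.57 in cKO libraries 1 and 2. These ratios rested on 402 to 466 Terb2 reads a library. With the second kit the 4 Cre controls at P16 had 3.28, 3.97, 3.64 and 4.17, and cKO library 3 had 2.48. In both kits the cKO ratios at P16 were below every control ratio of that kit. Majin to Terb2 was 1.16 and 1.18 in the controls and 0.772 and 0.708 in cKO, and with the second kit 1.54 to 1.92 in the Cre controls and 1.46 in cKO library 3. That last difference was small beside the spread of the Cre controls. At P14 the Terb1 to Terb2 ratio was 3.24 and 3.31 in the controls and 2.97 and 2.88 in cKO, with cKO on the low side by less than at P16. With the second kit at P14 it was 4.23 and 3.79 in the Cre controls and 3.12 in cKO library 3, and Majin to Terb2 was 1.61 and 1.49 against 1.07, a wider gap than at P16. These second-kit ratios rested on 88 to 107 Terb2 reads.

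**Figure D1:**
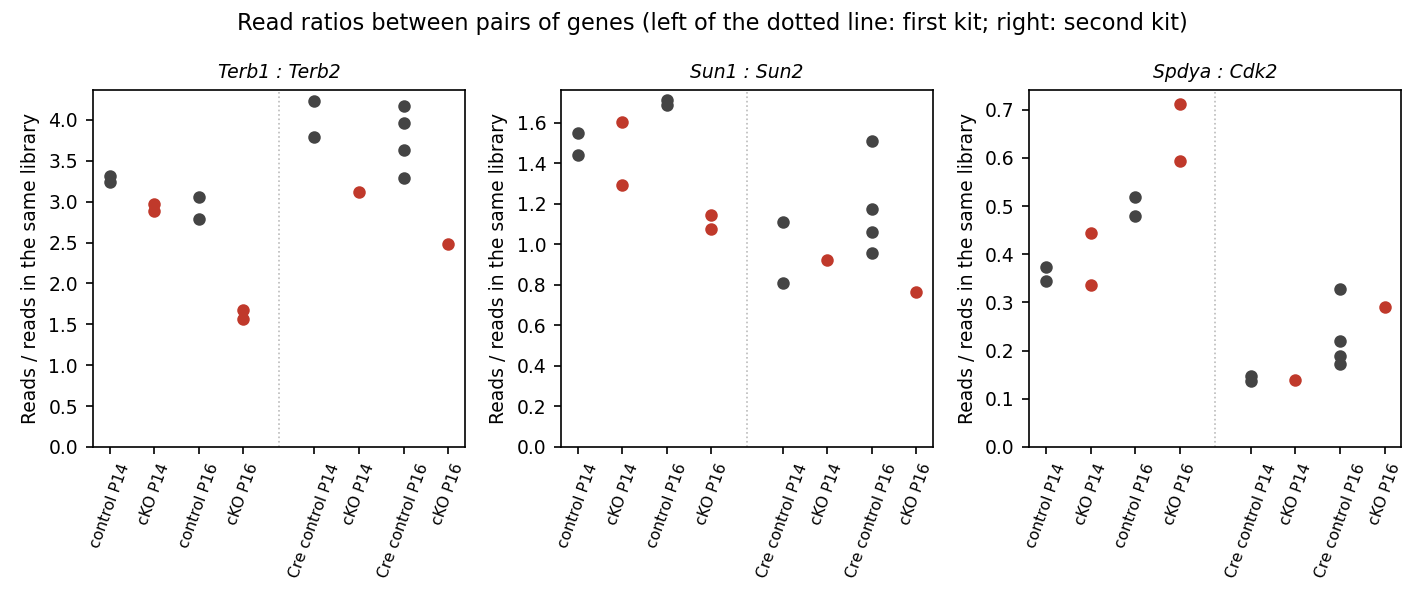
Reads of one gene for each read of another in every library, for Terb1 to Terb2, Sun1 to Sun2 and Spdya to Cdk2, by group and kit. In the P16 libraries of the first kit the cKO points lie below the control points for Terb1 to Terb2 (1.68 and 1.57 against 3.06 and 2.78) and Sun1 to Sun2, and above them for Spdya to Cdk2.

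Sun1 encodes the SUN-domain protein that meiotic telomeres depend on most. It had values of 5023 and 4771 in the controls and 3658 and 3616 in cKO at P16. The cKO libraries were close to each other and both well below the controls, at 74.3% of the control mean. The change was -0.43 (SE 0.044, limma adjusted p 1.47e-05). Sun2, the second widely expressed SUN protein, had 2933 and 2822 in the controls and 3407 and 3158 in cKO. All cKO values were above all control values, at 114% of the control mean, and the rise was 0.19 (SE 0.050, limma adjusted p 0.010). Sun1 had 1.71 and 1.69 reads for each Sun2 read in the controls and 1.07 and 1.14 in cKO, and with the second kit 0.957 to 1.51 in the Cre controls and 0.763 in cKO library 3. Ccdc155, which encodes the meiotic KASH partner, had 1217 and 1284 in the controls and 999.5 and 1225 in cKO. One cKO library was below both controls and the other between them, and the change of -0.18 (SE 0.082) was not called (limma adjusted p 0.110). Without cKO library 2 it was called, at -0.32 (limma adjusted p 9.54e-05).

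Spdya, the CDK2 activator at telomeres, had 1552 and 1638 in the controls and 1776 and 2041 in cKO at P16. Both cKO libraries were above both controls, though they were far from each other. The rise was 0.26 (SE 0.066, limma adjusted p 0.00809), or 120% of the control mean. Cdk2 had 3243 and 3155 in the controls and 2997 and 2871 in cKO. Its fall of 0.13 on the log2 scale (SE 0.046, limma adjusted p 0.0486) was the smallest change called and stood at the threshold. Spdya had 0.479 and 0.519 reads for each Cdk2 read in the controls and 0.593 and 0.711 in cKO. With the second kit this ratio was 0.172 to 0.329 in the Cre controls and 0.290 in cKO library 3, which lay within them.

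Among the direct telomere binders, Terf1 had control values of 623.5 and 621.0 and cKO values of 493.9 and 533.4. The controls were nearly identical and both cKO libraries lay below them, with a change of -0.28 (SE 0.074, limma adjusted p 0.0105). Terf2 had 860.4 and 819.5 in the controls and 825.8 and 807.8 in cKO. These ranges overlapped and the change of -0.04 (SE 0.064) was not called (limma adjusted p 0.658). Terf1 stood at 0.725 and 0.758 reads for each Terf2 read in the controls, against 0.598 and 0.660 in cKO.

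The groups did not overlap for 7 members at P16, 5 with cKO below and 2 above, and over all genes tested 69.7% did not overlap, 35.4% with cKO below and 34.2% above. Calls numbered 3 with eBayes without trend, and 2 when every P16 library was fitted together with a term for the kit. Leaving out a library ended 4 of the calls. Cdk2 was lost without control library 1, control library 2 or cKO library 2 (limma adjusted p 0.294, 0.140 and 0.132), Terf1 without control library 1 or 2 (0.0656 and 0.0591), Spdya without control library 1 (0.0782) and Sun2 without control library 2 (0.114). Terb1 and Sun1 were called in all 14 alternatives run, and Majin in 13, the exception being the fit of every P16 library together with a term for the kit (limma adjusted p 0.150). The Majin change in that fit was -0.55, the same as in the main test. The kit term cannot adjust this contrast, whose groups share a kit, and the fit takes its spread from the Cre controls as well. Overlapping annotated genes can share reads, and the strand setting of the counting is not given in the sources used here: Cdk2 overlaps Pmel, Sun1 overlaps 4930520M14Rik, Sun2 overlaps Gm16575 and Terb1 overlaps Gm22148, all on the other strand. Spdya overlaps the pseudogene Mettl4-ps1 on its own strand and Trmt61b on the other.

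**Figure D2:**
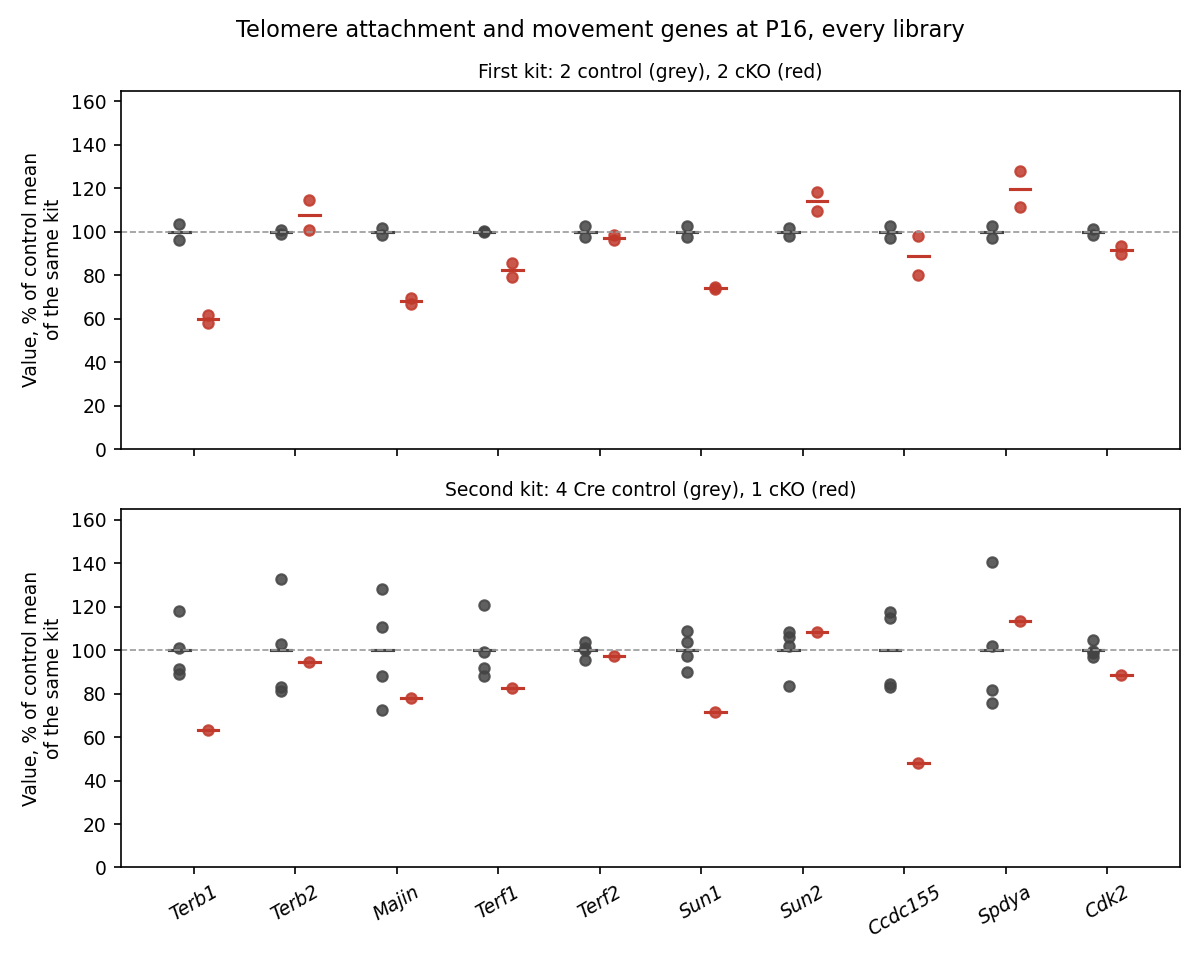
Value of each P16 library as a percent of the mean of the controls of the same kit, for the 10 members, with 1 panel for each kit and 1 point for each library. In both kits the cKO points of Terb1, Sun1, Terf1 and Cdk2 lie below every control point, while Terb2 stays within or above the controls.

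Whole testis was measured, so fewer cells of a type and less RNA per cell cannot be told apart in any of these values. Markers of the cells in which the members act moved at P16 as well. Of 10 leptotene and zygotene markers, 9 were called lower (median log2 change -1.03), and their summed level was 1173 to 1207 CPM in the controls and 783 to 820 CPM in cKO. Of 10 pachytene and later markers, 5 were called higher and 1 lower (median 0.17), with sums of 1837 to 1870 CPM and 1983 to 2210 CPM. Of 10 spermatogonial markers 8 were called lower and 1 higher (median -0.37, sums 825 to 843 CPM and 655 to 658 CPM). Of the somatic markers, 6 of 10 for Sertoli cells (median 0.22), 3 of 7 tested for Leydig cells (0.19) and 7 of 8 for macrophages (0.59) were called higher and 0 lower. Of 6 peritubular markers, 1 was called higher and 0 lower (median 0.020). Against the Cre controls at P16 the Sertoli cell markers had a median of -0.23, with 1 of 10 called lower and 0 higher. Macrophage markers summed to 127 to 130 CPM in the controls and 176 to 177 CPM in cKO. The part of these cell markers in the changes of the members was not tested.

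The second kit offers cKO libraries that were not part of the first-kit comparison, but only 1 at each stage, so its values carry no test. The deposited values given here were scaled together with those of cKO libraries 1 and 2. At P16, cKO library 3 lay below all 4 Cre controls for 5 of the 10 members and within their range for the other 5, against 30% of all genes below and 24% above. Terb1 stood at 370.6 in cKO library 3 and at 522.3 to 690.7 in the Cre controls, a difference of -0.65 in log2 means. Sun1 stood at 2945 against 3698 to 4481 (-0.48), Terf1 at 403.7 against 432.1 to 590.7 (-0.27) and Cdk2 at 2488 against 2728 to 2950 (-0.18). These 4 differences were close in size to those of the first kit (-0.74, -0.43, -0.28 and -0.13). Majin, the other gene of the membrane complex that fell in the first kit, stood at 218.4 against 203.1 to 358.6 (-0.32), within the wide range of the Cre controls. Terb2 (149.6 against 128.4 to 210.3), Spdya (722.6 against 482.4 to 896.5), Sun2 (3862 against 2971 to 3863) and Terf2 (917.2 against 899.5 to 978.9) were within range too. The summed leptotene and zygotene markers of cKO library 3, at 606 CPM, also lay within the 501 to 713 CPM of the Cre controls, as did the pachytene and later markers, at 1509 CPM against 1435 to 2712 CPM, while the macrophage markers were above them, at 167 CPM against 119 to 150 CPM.

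Ccdc155 was the member on which the kits differed most. With the second kit it stood at 1965, 1447, 2007 and 1421 in the 4 Cre controls and at 821.9 in cKO library 3. That is far below all of them, a difference of -1.04, against -0.18 with the first kit. The Cre controls that were high in Ccdc155, libraries 1 and 3, also had the highest sums of pachytene and later markers (2712 and 2330 CPM, against 1771 and 1435 CPM in libraries 2 and 4), and the part of these markers in the difference was not tested. The Cre controls also differed from the first-kit controls in this gene's course over time: from P14 to P16 it rose by 1.24 (SE 0.15) in the Cre controls and by 0.62 (SE 0.11) in the controls. The difference between these rises was not tested. Kit, control type and sequencing run cannot be told apart here, although by the column names cKO library 3 and Cre control library 1, with 821.9 and 1965, came from the same run.

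**Figure D3:**
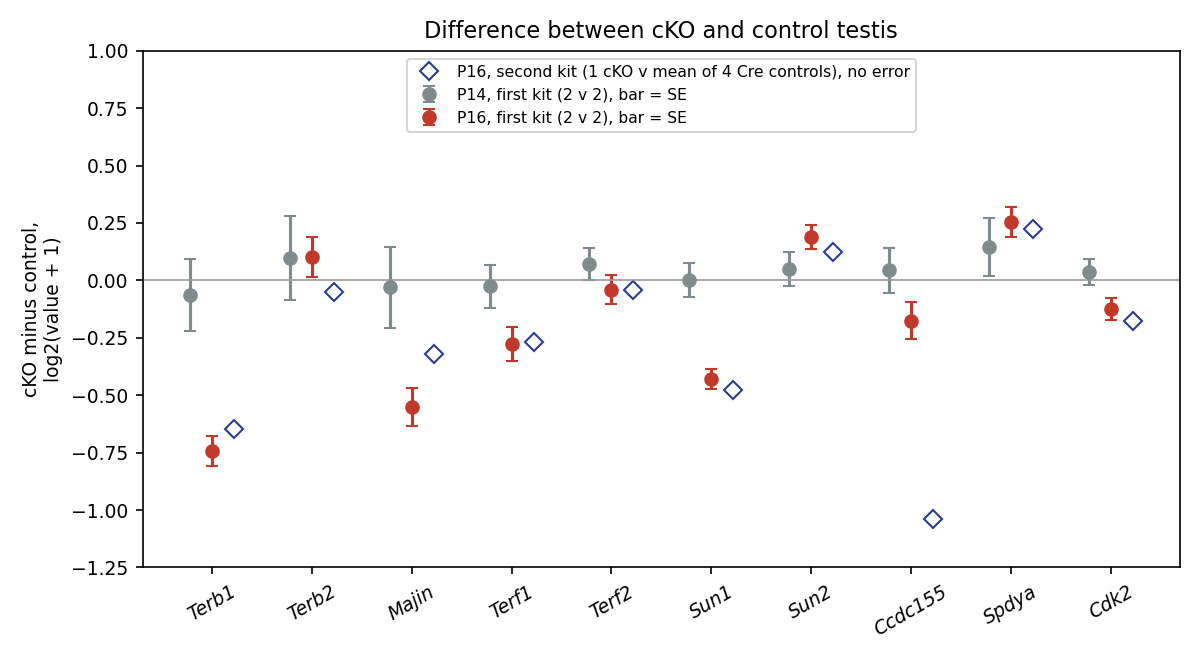
Log2 change of each member between cKO and control libraries of the first kit at P14 and at P16, with bars of 1 SE from limma, and the log2 difference of cKO library 3 from the Cre control mean of the second kit at P16 as diamonds without error. Terb1, Majin, Sun1, Terf1, Cdk2, Ccdc155 and, only slightly, Terf2 lie below 0 at P16 in both kits. The P14 points lie near 0, and Ccdc155 has the widest gap between the kits.

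At P14, soon after the tamoxifen, no difference between cKO and control passed the test for any member in the first kit. By limma 0 of 10 were called and 0 had an unadjusted p under 0.05, edgeR and DESeq2 each called 0, and 0.00579% of the 17270 genes tested were called, which is Ythdc2 alone, and 410 genes had an unadjusted p under 0.05. Log2 changes lay between -0.06 (Terb1) and 0.15 (Spdya), with a median of 0.041 against 0.0090 over all genes. Terf2 alone did not overlap, at 729.9 and 749.9 in the controls and 768.2 and 786.5 in cKO. Over all genes 29.6% did not overlap, 15.1% with all cKO above all control libraries.

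The 2 cKO libraries of P14 stood on opposite sides of the controls for most members. Terb1 had 889.2 and 928.7 in the controls and 726.3 and 1039 in cKO libraries 1 and 2. Majin had 355.3 and 327.3 against 277.7 and 401.8, and Terb2 had 274.5 and 280.7 against 244.7 and 360.3. In each case library 1 was lowest and library 2 highest. The same order held for Sun1 (3981 and 4168 against 3808 and 4361), Ccdc155 (747.1 and 760.7 against 710.8 and 850.3), Spdya (1028 and 1037 against 996.2 and 1310) and Terf1 (581.3 and 581.9 against 531.1 and 614.6). Sun2 had 2572 and 2893 against 2941 and 2715, and Cdk2 had 2988 and 2782 against 2965 and 2953, with no such order. Spermatocyte markers stood apart in these libraries too. The leptotene and zygotene markers summed to 1028 CPM in cKO library 1 and 1129 CPM in library 2, against 1115 and 1119 CPM in the controls, and the pachytene and later markers to 752 and 1154 CPM, against 736 and 833 CPM, and their part in the spread was not tested. Leaving out a single library turned the sign of every member change at P14 but that of Terf2, so that Terb1 was -0.32 without library 2 and 0.19 without library 1, and Majin was -0.30 and 0.24.

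With the second kit at P14, cKO library 3 was below both Cre controls for 5 members, against 33.3% of all genes, and above both for 1, against 26.9%. Terb1 stood at 399.3 against 428.7 and 476.5, Majin at 137.5 against 163.6 and 187.1, Sun1 at 2980 against 3243 and 3555, Ccdc155 at 511.7 against 648.8 and 673.5, and Terf1 at 390.9 against 448.2 and 502.4. Terb2, at 127.9 against 101.4 and 125.6, was the member above.

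An interaction term for genotype and stage, fitted to log2 CPM of the recovered reads in the 8 first-kit libraries, tested whether the effect of the cKO changed from P14 to P16. Sun1 was the only member called (1 of 10, against 7.39% of the 18581 genes tested, 4.49% lower and 2.9% higher), and 3 of 10 had an unadjusted p under 0.05. The effect on Sun1 was lower at P16 than at P14, the effects differing by -0.41 on the log2 scale (SE 0.089, limma adjusted p 0.0258). Those of Terb1 (-0.66, SE 0.19) and Majin (-0.51, SE 0.21) were larger but less certain, with limma adjusted p 0.0647 and 0.166. In the same test 7 of 10 leptotene and zygotene markers were called lower (median -0.97) and 4 of 8 macrophage markers higher (median 0.67), and their part was not tested. The 7 other members had differences between -0.24 (Terf1) and 0.15 (Sun2), none of them called. The Sun1 call was lost without any 1 of the 4 control libraries or either P16 cKO library (limma adjusted p 0.0665 to 0.119). Without cKO library 1 of P14, Terb1 (-0.94), Majin (-0.80), Terf1 (-0.36) and Sun1 (-0.53) were called, and without cKO library 2 of P14 Terb1 (-0.42) and Sun1 (-0.33) were.

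Between P14 and P16 the control testis gained RNA of the genes for the outer membrane link and the kinase activator. Ccdc155 rose by 0.62 (SE 0.11, limma adjusted p 0.00345) and Spdya by 0.52 (SE 0.12, limma adjusted p 0.0115), and these 2 of 10 were called, against 20% of all genes tested, 13.3% higher and 6.67% lower. Per kilobase of exon, Ccdc155 went from 13.3 and 13.6 CPM at P14 to 20.6 and 21.9 CPM at P16 in the controls, and Spdya from 19.7 and 20.0 CPM to 28.3 and 30.1 CPM. The P16 controls were clearly above the P14 controls for both. Terb2 (0.49, SE 0.16), Majin (0.42, SE 0.15), Terb1 (0.33, SE 0.13) and Sun1 (0.16, SE 0.063) had positive changes that were not called (limma adjusted p 0.0511, 0.0745, 0.117 and 0.108), and Sun2, Cdk2, Terf1 and Terf2 lay between -0.03 and 0.08. Over the same 2 days all 10 pachytene and later markers were called higher in the controls (median 1.57) and 6 of 8 macrophage markers lower (median -0.77), and their part in the rise of these genes was not tested. The Spdya call was lost without any 1 of the 4 control libraries (limma adjusted p 0.0525 to 0.0881). Without cKO library 1 of P14, which enters this contrast only through the spread, scaling and filter shared by the fit, the calls differed. The changes themselves hardly moved, with Terb1 at 0.33 and Majin at 0.42.

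In cKO testis the same 2 genes rose over the 2 days, Spdya by 0.64 (SE 0.12, limma adjusted p 0.00254) and Ccdc155 by 0.42 (SE 0.11, limma adjusted p 0.0173), and so did Terb2, by 0.52 (SE 0.16, limma adjusted p 0.0325). Sun1 fell by 0.26 (SE 0.063, limma adjusted p 0.0127). These were 4 of 10 members called, against 29.8% of all genes, 16% higher and 13.8% lower. In cKO, too, all 10 pachytene and later markers were called higher (median 1.47), while 7 of 10 leptotene and zygotene markers (median -0.92) and 7 of 10 spermatogonial markers (median -0.41) were called lower, and their part was not tested. Terb1 had a change of -0.33 (SE 0.13, limma adjusted p 0.0912), which without cKO library 1 of P14 was -0.61 and called (2.63e-04), and Majin of -0.09 (SE 0.15, limma adjusted p 0.692). Per kilobase, Terb1 stood at 8.35 and 12.1 CPM in the P14 cKO libraries and at 7.66 and 8.25 CPM in those of P16, while in the controls it went from 10.0 and 10.5 to 12.8 and 13.7 CPM. The P16 cKO values were thus below both of P14, and the P16 controls above both P14 controls. The difference between these courses is the interaction above, which was not called for Terb1. Terb2 was no longer called without cKO library 1 of P14 (0.22, limma adjusted p 0.172), without either P16 cKO library (0.0718 and 0.189) or without either P16 control library (0.0558 and 0.0603). Ccdc155 was lost without cKO library 1 of P14 (0.27, limma adjusted p 0.0815) or library 2 of P16 (0.26, limma adjusted p 0.140), and Sun1 without either P16 cKO library (limma adjusted p 0.0567 and 0.0712).

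**Figure D4:**
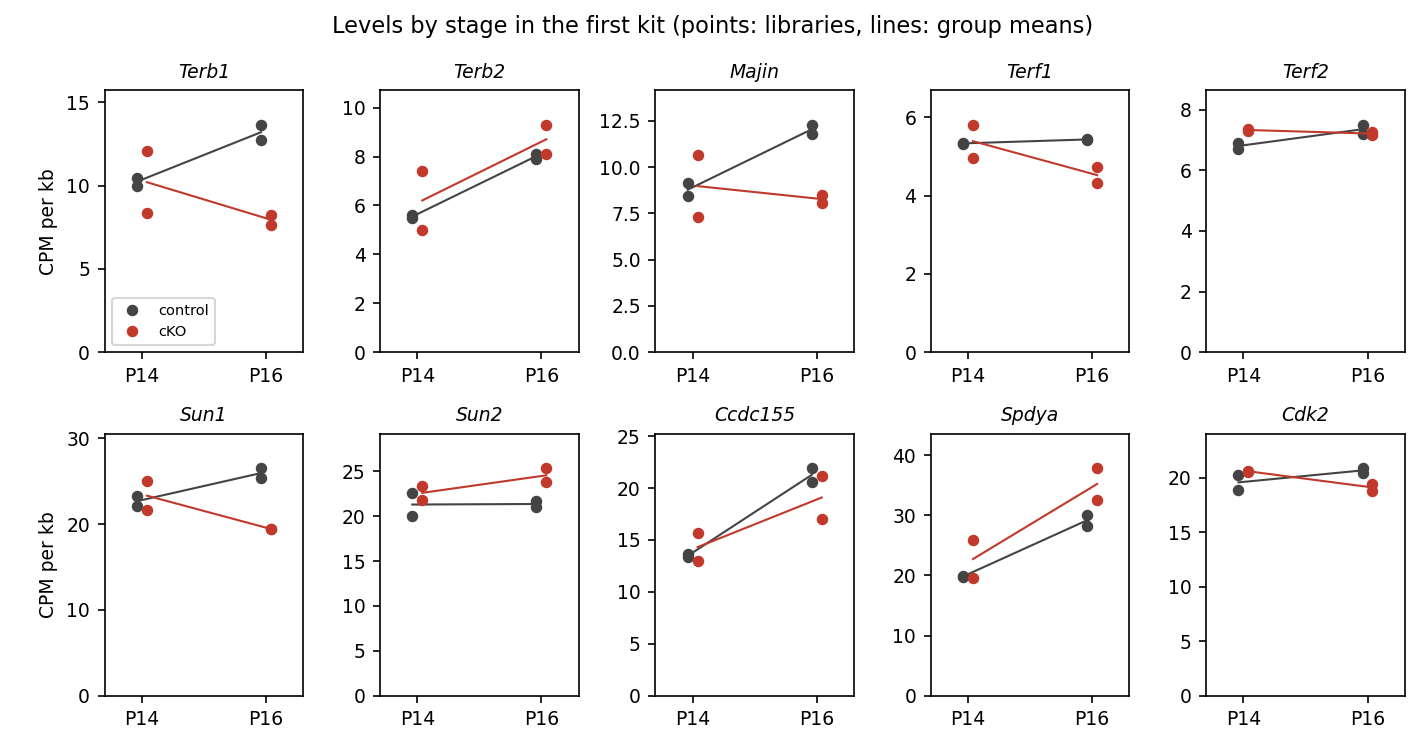
Level of each member in CPM per kilobase of exon in the 8 libraries of the first kit, for control and cKO testis at P14 and P16; points are libraries and lines join group means. Ccdc155 and Spdya are higher at P16 than at P14 in both genotypes, whereas Terb1, Majin and Sun1 part at P16 with cKO below control.

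In the Cre controls, Ccdc155 rose by 1.24 (SE 0.15, limma adjusted p 0.00106) from P14 to P16 and was the only member called (1 of 10, against 11.8% of 18819 genes, 9.06% higher and 2.75% lower). Spdya, at 0.75 (SE 0.22), had a limma adjusted p of 0.0564 and was called without Cre control library 4 of P16 (0.87, limma adjusted p 0.0208). Per kilobase, Ccdc155 went from 14.2 and 15.1 CPM to 29.2 to 41.5 CPM. The 4 P16 libraries were all well above the pair of P14. By the column names both P14 libraries and P16 library 1 came from 1 sequencing run and P16 libraries 2 to 4 from another. Within the shared run, Ccdc155 was at 14.2 and 15.1 CPM at P14 and 41.3 CPM at P16. All 10 pachytene and later markers were called higher in this contrast as well (median 2.31), and their part in the rise was not tested.

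Against Cre controls at P16, with 4 Cre control libraries and 3 cKO libraries, Ccdc155 and Sun1 were called lower. These were 2 of 10 members, against 9.07% of the 19200 genes tested, 4.77% lower and 4.3% higher. Sun1 stood at 2997, 2981 and 2945 in cKO and at 4481, 3698, 4273 and 4012 in the Cre controls. All 3 cKO libraries were close to each other across both kits and below every control, with a change of -0.47 (SE 0.083, limma adjusted p 0.0367). Ccdc155 stood at 818.7, 1010 and 821.9 in cKO, below the 1421 to 2007 of the Cre controls, with a change of -0.94 (SE 0.16, limma adjusted p 0.0367). Cdk2 did not overlap either, at 2367 to 2488 in cKO and 2728 to 2950 in the Cre controls (change -0.21, SE 0.067, limma adjusted p 0.0677), and 3 of 10 members had all cKO libraries below, against 16.9% of all genes. Terb1 (-0.18, SE 0.20, limma adjusted p 0.532) and Majin (-0.10, SE 0.21, limma adjusted p 0.750) overlapped and were not called. Of the leptotene and zygotene markers 4 of 10 were called lower here and 1 higher (median -0.15), and their part was not tested. This comparison shares cKO libraries 1 and 2 with the first-kit one, and these differ in kit from every Cre control.

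Both calls were lost with the kit as a covariate, with Sun1 at -0.48 (limma adjusted p 0.115) and Ccdc155 at -1.04 (limma adjusted p 0.0986). They were also lost without any library but cKO library 3 (limma adjusted p 0.0720 to 0.191). Both were kept in the fit of every P16 library together with a term for the kit. In either kit fit the change rests on cKO library 3, the only cKO library of the Cre controls' kit. Without that library 7 members were called, among them Terb2 (1.26) and Spdya (1.34) higher and Terf2 (-0.49) and Sun2 (-0.39) lower, and then every cKO library differs in kit from every control, so genotype and kit cannot be told apart. These genes also differed in level between the controls of the first kit and the Cre controls, which differ in kit, control type and run. Per kilobase at P16, Terb2 had 8.02 ± 0.144 CPM (SD, n = 2) in the first-kit controls and 3.66 ± 0.928 CPM (SD, n = 4) in the Cre controls, and Spdya 29.2 ± 1.26 and 14.2 ± 4.35 CPM. Sun2 had 21.4 ± 0.473 and 32.1 ± 3.29 CPM and Terf2 7.35 ± 0.215 and 10.0 ± 0.428 CPM. Terb1 had 13.2 ± 0.644 and 7.63 ± 1.10 CPM, Majin 12.1 ± 0.353 and 8.34 ± 2.14 CPM, and Ccdc155 21.3 ± 0.912 and 35.35 ± 6.94 CPM. At P14, 0 members and 0% of the 18196 genes were called by limma against Cre controls (705 genes, 0 of them members, at an unadjusted p under 0.05), and 5 members were called without cKO library 3, again with kit and genotype not told apart.

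The members differed several-fold in level per kilobase in the P16 controls of the first kit. Spdya was highest, at 28.3 and 30.1 CPM per kilobase, followed by Sun1 at 25.4 and 26.5. Sun2 (21.0 to 21.7), Ccdc155 (20.6 to 21.9) and Cdk2 (20.5 to 20.9) came next and could not be ordered beyond their spread. Terb1 (12.8 to 13.7) was above Majin (11.8 to 12.3), Terb2 (7.92 to 8.12), Terf2 (7.2 to 7.5) and Terf1 (5.42 to 5.44). In cKO the order changed: Sun2 (23.8 to 25.4) was above Sun1, at 19.4 in both libraries, and Terb1 (7.66 to 8.25) overlapped with Majin (8.06 to 8.49) and Terb2 (8.11 to 9.30). Exon lengths came from another annotation release than the one behind the counts, so these levels are approximate between genes.

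The genes whose course over all 16 libraries was nearest to a member were found among 20303 genes by the root mean square difference of log2 CPM, each gene being centred within each kit. Nearest to Terb1 were Zfp367 and Polq, the latter a DNA polymerase of end joining, at 0.0983 and 0.0986, and Sun1 was in place 16 at 0.127. Terf1 was in place 351, Majin in place 552 and Terb2 in place 6343 of that order, so that Sun1 was the member closest to Terb1. In the order of Majin, Terb1 was the closest member, in place 273, ahead of Sun1 in place 650. Terb2 and Majin had fewer reads than Sun1, and the part of read number in these places was not tested. Nearest to Terb2 were Cks2, a small subunit of cyclin-dependent kinase complexes, and Ppp4r4 (0.117 and 0.119). Majin had Smim8 and Ube2t nearest (0.132 and 0.134), Ccdc155 had Ankrd45 and Mak, a kinase of male germ cells (0.106 and 0.117), and Spdya had Nectin3 and Cfap97 (0.0923 and 0.0963), with Terb2 in place 193. The 16 libraries share groups and depths, so nearness describes these libraries only.

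The other genes of the pathway are given as lists, to be read beside the 38.6% of all genes called at P16, 18.6% higher and 19.9% lower. Of 15 other shelterin and telomere end genes at P16, 3 were called higher and 5 lower against the control, with a median of 0.012. Tinf2, which joins TERF1 and TERF2 to the rest of shelterin, had 1738 and 1793 in the controls and 1239 and 1244 in cKO, a fall of 0.51 on the log2 scale (SE 0.053, limma adjusted p 1.47e-05). Both cKO libraries were far below both controls. Tinf2 was also called against the Cre controls at P16 (-0.40, SE 0.084, limma adjusted p 0.0408). Dclre1b, a nuclease that trims telomere ends (-0.34), and Acd, the shelterin subunit TPP1 (-0.32), fell too, while Tep1 (0.27), the tankyrase gene Tnks2 (0.18) and Ctc1 (0.16) rose. The calls of Dclre1b, Tep1, Tnks2 and Ctc1 each ended without at least 1 of the control libraries (limma adjusted p 0.0630 to 0.162).

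Of 8 other SUN and KASH genes, 7 passed the filter, and 3 were called higher and 1 lower (median 0.40). Syne2, which encodes the large KASH protein nesprin-2, had 7884 and 8570 in the controls and 12428 and 12081 in cKO, a rise of 0.58 (SE 0.046, limma adjusted p 1.84e-06). Syne3 (0.44) and Syne1 (0.40), which encode the nesprins 3 and 1, rose as well, and Spag4, a SUN gene of spermatids, fell from 86.2 and 95.5 to 53.4 and 53.9 (-0.75, limma adjusted p 0.00536). In the first kit the 3 nesprin genes rose as Sun2 did, while Sun1 fell. Against the Cre controls at P16, Sun2 was at -0.22 and not called (limma adjusted p 0.331). There 1 of the 7 other SUN and KASH genes was called higher and 0 lower (median 0.25). The first-kit calls of the 3 nesprin genes and Spag4 held without any 1 library. With eBayes without trend Syne3 and Syne1 were lost (limma adjusted p 0.0514 and 0.0742), with DESeq2 Spag4 (adjusted p 0.0509), and in the fit of every P16 library with a term for the kit Syne2 was the 1 still called. Sun5 was at 0 in the P16 libraries of the first kit and was not tested.

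Of 10 lamina and inner membrane genes, 3 were called in each direction (median -0.07): Banf1 (-0.44), Emd (-0.33) and Lemd3 (-0.17) fell, and Tor1aip1 (0.26), Lmnb1 (0.16) and Lemd2 (0.14) rose. On the motor side, 3 of 24 cytoplasmic dynein and dynactin genes were called higher and 3 lower (median 0.025). Dync1i1, a dynein intermediate chain (0.49), Dynlt3 (0.28) and Pafah1b1 (0.12) rose, and Dynlrb2, a dynein light chain (-0.37), Bicd2 (-0.21) and Dctn5 (-0.20) fell. Of these 12 genes, Banf1, Tor1aip1 and Dync1i1 were called whichever library was left out.

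Of 14 CDK2 partners and inhibitors, 0 were called against the Cre controls at P16 (median -0.013). Against the control at P16, 6 were called lower and 1 higher (median -0.16). Ccna1, the germ cell cyclin A, changed by -0.84 (limma adjusted p 0.00302), Ccne2 by -0.67 (1.07e-05) and Ccne1 by -0.53 (6.76e-04), and the one that rose was the inhibitor gene Cdkn1a, by 0.78 (0.00441). Ccna1 also stands among the pachytene and later markers, where it was the 1 called lower at P16. Spdya, the partner described above and not counted here, rose. The 16 matched genes of synapsis and the chromosome axis were all called lower (16 of 16, median -0.45), led by Rad21l (-1.59), Syce2 (-0.93) and Stag3 (-0.73). With eBayes without trend 7 of the 16 were called, and 8 in the fit of every P16 library with a term for the kit. Against the Cre controls at P16, 2 of 16 were called lower and 0 higher, with a median of -0.10. Hormad1 and Rad21l stand in both this list and the leptotene and zygotene markers. Terb1, Majin and Sun1, at -0.74, -0.55 and -0.43, lay within the range of this list, as did Terf1 and Ccdc155, at -0.28 and -0.18. Cdk2 and Terf2, at -0.13 and -0.04, lay at or above its upper end. Terb2, Sun2 and Spdya, at 0.10, 0.19 and 0.26, lay outside it. Every gene listed fell, so any member that rose must lie outside, and the comparison shows no grouping of members with these genes. At P14 limma called 0 genes in each of these 6 lists, with 4 synapsis and axis genes and 0 genes of the others at an unadjusted p under 0.05.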

How the data were processed

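RNA of 16 testis libraries was compared in the 4 tables that the authors deposited, each scaled on its own. What the authors deposited is a signal: for each gene, its read number over the library's size factor. In all 20 columns every nonzero value (100%) came to a whole number of reads within a tolerance of 0.01, so whole reads were recovered. Per the submitters' processing notes, Trim Galore, STAR, HTSeq and DESeq2 were used with build GRCm39 (mm39), and their versions are not given in the sources used here. cKO libraries 1 and 2 stand in both tables of a stage with identical reads and were counted once. Summary rows of the read counting, with 53.4% to 63.0% of all reads counted in a library, were left out.

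The main test was limma 3.58.1 (R 4.3.3, eBayes with trend) on log2(value + 1), for genes reaching 10 in 2 or more libraries, with Benjamini-Hochberg adjustment over all genes and a threshold of 0.05. Stage contrasts and the interaction used the recovered reads as log2 CPM with TMM scaling and a prior count of 1. As alternatives edgeR 4.0.16 and DESeq2 1.42.0 were run on those reads, along with other pseudocounts, filters, scalings and designs and fits without each library. The tests were checked on simulated counts from a common mean profile. These held no kit or run differences, so the check does not reach the comparisons that mix kits. Gene names were found for 52081 of the 55414 IDs. Exon lengths came from GENCODE M21 and promoters from RefSeq (GRCm38.p6), so no coordinates of the counted genes are given. The members, gene lists and tests were chosen with earlier results of these data known. Named are all members, Ythdc2, up to 3 called genes a list with the largest rise and the largest fall at P16, and the 2 genes nearest in pattern to Terb1, Terb2, Majin, Ccdc155 and Spdya. One synapsis gene of 17 listed had no matching row.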

Additional observations from a re-analysis of the deposited data

Results flagged for a closer look

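The response of Sun1 to the loss of Ythdc2 differed between the stages by the test of the difference itself, a call kept in 6 of 14 alternatives. The log2 difference between the effect at P16 and the effect at P14 was -0.41 (SE 0.089, limma adjusted p 0.0258), from effects of 0.00069 at P14 and -0.43 at P16 in the separate fits of each stage. Both cKO libraries were below both controls at P16, and at P14 the cKO libraries stood on either side of them. Among the 4 Cre controls at P16, the group large enough for a check of single libraries, 0 of the 10 members had a library far from the others by Dixon's test.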

How the results depend on the processing

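Over the 10 members and 8 contrasts, 1010 of the single-gene alternatives kept direction and side of the threshold, 66 lost a call, 45 gained one and 39 changed sign. Against the control at P16 the count of members called, 7, was 3 with eBayes without trend and 2 in the fit of all libraries of the stage with the kit as a covariate. Calls against the Cre control at P16, 2 in all, became 0 with eBayes without trend and with the kit as a covariate and 5 with DESeq2. Both were kept in the fit of all libraries of the stage with the kit as a covariate. The interaction, with 1 call, gave 0 with eBayes without trend and 0 with no filter. Calls of the change from P14 to P16 became 1 in control and 1 in cKO with eBayes without trend, and with no filter 2 in cKO and 2 in the Cre controls. The causes were not tested.

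The labels do not say whether replicate numbers pair the libraries, and the main tests did not pair them. Deviations of same-numbered libraries correlated at 0.203 at P14 and 0.0798 at P16 against control. Against the Cre control they correlated at -0.233 and 0.242 at P14, and at 0.304, -0.0704 and 0.225 at P16. With so few libraries a group these values neither show nor exclude pairing. With the replicate block, members called were 8 against control at P16, with Ccdc155 (-0.18, limma adjusted p 0.00684) added, 0 against the Cre control at P16, 6 against the Cre control at P14, 2 in the interaction, with Terb1 (limma adjusted p 0.0313) added, and 4 in control and 2 in the Cre controls for the stage change. With 1 cKO library left out of a group of 2, the lone library is assumed to vary like the other groups.

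Values that changed sign were not called under either setting. Sun1 at P14 was -0.00370 with TMM scaling, -0.000187 with edgeR and -0.00371 in the fit of all libraries with the kit as a covariate. Terb2 in the interaction was -0.00740 with edgeR and -0.017 with no filter. Against the Cre controls, the fit of all libraries with the kit and that with the kit as a covariate gave -0.037 and -0.052 for Terb2 (0.82 as tested) and 0.14 and 0.12 for Sun2 (-0.22) at P16, and at P14 -0.19 and -0.18 for Terb1 (0.37), -0.36 and -0.35 for Majin (0.30) and 0.043 and 0.052 for Terf2 (-0.27). Several of these reversals were large.

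Leaving out each library in turn, the count of members called ranged from 4 to 7 against control at P16, 0 to 7 and 0 to 5 against the Cre control at P16 and P14, 0 to 4 in the interaction, and 1 to 6 in control, 1 to 5 in cKO and 1 to 2 in the Cre controls for the stage change. Against control at P14 the log2 change ranged from -0.32 to 0.19 for Terb1, -0.18 to 0.37 for Terb2, -0.30 to 0.24 for Majin, -0.097 to 0.098 for Sun1, -0.034 to 0.14 for Sun2, -0.085 to 0.17 for Ccdc155, -0.052 to 0.34 for Spdya, -0.014 to 0.089 for Cdk2 and -0.13 to 0.079 for Terf1. It ranged from -0.32 to 0.054 for Terb1 and -0.24 to 0.029 for Majin against the Cre control at P16, from -0.053 to 0.10 for Cdk2 against that at P14, and in the interaction from -0.28 to 0.29 for Terb2 and -0.094 to 0.31 for Spdya. For the stage change the ranges were -0.11 to 0.050 for Sun2 and -0.013 to 0.098 for Cdk2 in control, -0.37 to 0.17 for Majin in cKO, and -0.42 to 0.15 for Sun2 and -0.025 to 0.086 for Terf2 in the Cre controls.

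Over all genes the calls ranged from 1420 to 8200 against control at P16 (6939 in the test reported), from 0 to 11 at P14 (1), from 0 to 9427 against the Cre control at P16 (1741), from 0 to 6966 at P14 (0), from 135 to 3199 in the interaction (1373) and from 1640 to 4737 for the stage change in control (3714). Terb2 and Majin, with 88 to 187 and 115 to 356 reads in the libraries of the second kit, are the least precise there. With 2 libraries a group, small changes that missed the threshold are not shown to be absent.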
